A study of Danio rerio with 12 samples.

Results

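The synapse and axon guidance genes described here are plxnb2b, neurod6a, pcdh17, PCDH9, dlgap4a, nlgn1, erc1b and grip1, 8 of the 149 gene names in 3 deposited tables of DNA fragments that differed in methylation between groups of zebrafish larvae. Their members are the fragments to which the tables assign one of these names, which gave 9 of 153 distinct fragments and 12 of 171 entries. The genes were chosen with the listed differences in view, so the levels and differences below are descriptions and the p values are no independent evidence.

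Zebrafish of the AB strain were kept singly for 7 days in control medium, in 50 µg/L triclosan or in 100 µg/L triclosan, and were sampled as whole larvae at 7 days post-fertilisation. Triclosan is an antibacterial agent of consumer products. Each library came from a pool of 24 larvae, with 4 libraries per group and 12 in all. Since 6 pools were sampled per group, not every pool has a library here, and the sample titles do not tell how the 4 were chosen. Nothing in the labels tells if the pools shared a clutch, so p values measure the spread between these pools only. Methylation was read by reduced representation bisulfite sequencing, which cuts DNA at CCGG sites with MspI and sequences short, CpG-rich fragments after bisulfite treatment. The tables hold 1 level per group and fragment, without values per library or read coverage, so depth and the levels of single libraries are unknown. Whether single libraries of 2 groups overlap was not worked out here. DNA came from whole larvae, and a change of methylation within cells cannot be told apart from a change in the mix of cells.

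Axons find their targets through receptors for guidance cues, among them the plexins, which bind semaphorins. Contacts between neurons are then held by adhesion molecules such as neuroligins and protocadherins, and are organised by scaffolds on the presynaptic and the postsynaptic side. Methylation of cytosine at CpG sites is common in gene bodies and between genes of vertebrates and is mostly low at active promoters.

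Fewer fragments lay in the gene whose name they carry than outside it. In the authors' deposited tables, built on Zv9, 1 of the 9 fragments lay on an exon (neurod6a), 3 on an intron (grip1 and both of erc1b) and 5 outside the gene, beside 14, 45 and 94 of all 153. The 5 outside lay 14.98 kb (dlgap4a), 18.7 kb (plxnb2b), 27.7 kb (pcdh17), 138 kb (nlgn1) and 257 kb (PCDH9) from the gene range, so their assignment rests on nearness along the chromosome. The ranges given for the last 2 genes are short, 10.6 kb for nlgn1 and 4.35 kb for PCDH9 in the authors' deposited tables, against 47.4 kb for dlgap4a and 259 kb for erc1b. Place and distance hold for those gene models only. The mark 5′ or 3′ beside each distance went with the lower or higher coordinate end of the gene in 171 of 171 entries (within 3 bp), so it was read as a side on the chromosome and not as upstream or downstream.

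**Figure D1:**
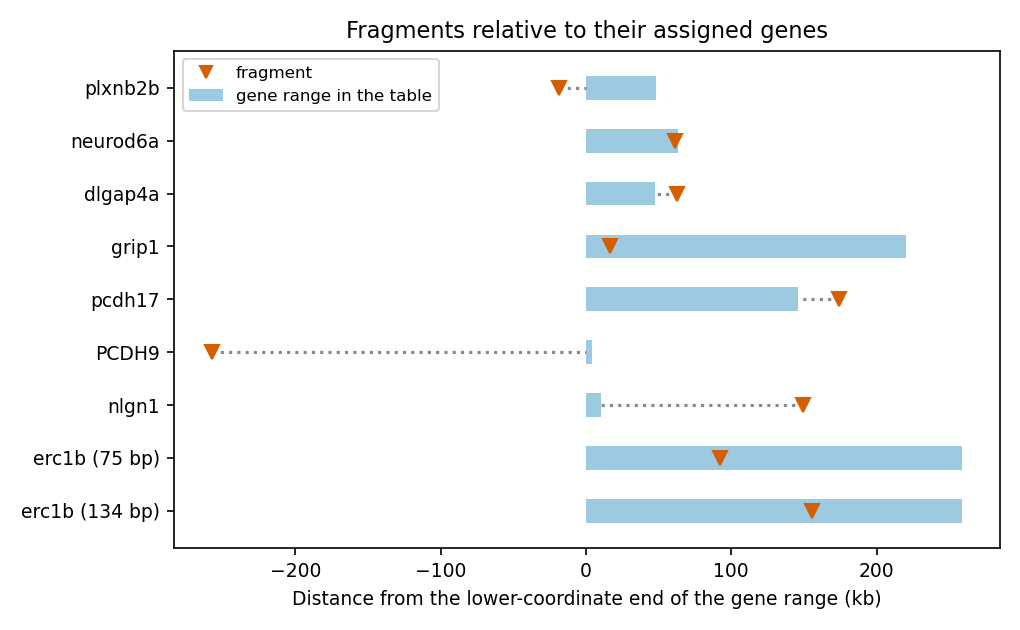
Position of the 9 fragments (triangles) relative to the gene range of the authors' deposited tables (bars), in kb from the lower-coordinate end of each range. Fragments of neurod6a, grip1 and erc1b lie inside the bars, those of dlgap4a, plxnb2b and pcdh17 lie 14.98 to 27.7 kb outside, and those of nlgn1 and PCDH9 lie 138 and 257 kb away from short ranges.

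The fragments were 66 to 153 bp long (median 121, against 101 for all listed) and held 2 to 10 CpG sites (median 5 in both sets). CpG sites were densest in the shorter erc1b fragment, at 9.33 per 100 bp, and sparsest near PCDH9, at 2.53, with medians of 5.22 for the 9 and 5.33 for all 153. None of the 9 lay in a CpG island, and the nearest island was 5.05 kb (dlgap4a) to 475 kb (erc1b) away. Of the 9 fragments 6 were longer than the 100 bases of a read, as were 77 of the 153, and whether all their CpG sites were covered was not tested. Both erc1b fragments lay 62.5 kb apart, whereas the nearest other listed fragment to each of the remaining 7 was 1.88 to 9.78 Mb away.

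plxnb2b encodes a plexin, a receptor through which semaphorins steer axons and migrating cells. Its fragment (chromosome 25, 5914800 to 5914865, 66 bp, 4 CpG sites) was methylated to 71.8% in control, 95.9% at 50 µg/L and 69.9% at 100 µg/L per the authors' deposited tables. The low-dose group thus stood above both others, near full methylation. If the level is an even mean over the 4 sites, 2.87 of them were methylated per copy in control, 3.84 at 50 µg/L and 2.80 at 100 µg/L. The rise of 24.1 points from control to 50 µg/L had a standard error (SE) of 3.56 points, computed as the difference over the root of the authors' F statistic, and a 95% interval of 14.98 to 33.3 points (4 control and 3 low-dose libraries). Its unadjusted F-test p of 0.00106 in the authors' deposited table was the smallest of the 55 listed for that comparison. From 50 to 100 µg/L the level fell by 26.0 points (SE 4.72, interval −38.1 to −13.8, 3 and 4 libraries), the fourth largest size of 99 in the authors' deposited table, with an F-test p of 0.00272. On the scale of natural log odds, which stretches levels near 0% and 100%, plxnb2b had the largest change of all listed fragments in both tables, 2.22 and −2.31.

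neurod6a encodes a basic helix-loop-helix transcription factor of differentiating neurons. Its fragment (chromosome 24, 33678543 to 33678688, 146 bp, 10 CpG sites) was the single exonic one, and it had the lowest level among the 9. Methylation was 9.96% in control, 25.1% at 50 µg/L and 9.86% at 100 µg/L per the authors' deposited tables, so that the low-dose group alone was raised. Averaged evenly over 10 sites this is 0.996, 2.51 and 0.986 methylated sites per copy. The rise at 50 µg/L was 15.2 points (SE 3.77, interval 5.45 to 24.8, 3 control and 4 low-dose libraries, F-test p = 0.0102 in the authors' deposited table). The difference from 50 to 100 µg/L was −15.3 points (SE 2.80, interval −22.1 to −8.40, 4 libraries in each group, F-test p = 0.00159 in the authors' deposited table). It was 1 of 2 member entries with all 4 libraries in both groups. The deposited distance of 61.5 kb is measured from the far end of the gene range: the centre of the fragment lay 1.76 kb from the higher-coordinate end of a 63.2 kb range. Of the 55 fragments listed for control against 50 µg/L, this was the 1 with a control level under 10% in the authors' deposited table.

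For both genes the level at 100 µg/L lay close to control, at −1.83 points for plxnb2b and −0.100 points for neurod6a (100 µg/L minus control). Neither fragment was listed for that pair, and the 2 F statistics bound the error of the gap without fixing it. With the largest SE they allow, the 95% interval was −14.1 to 10.4 points for plxnb2b and −13.0 to 12.8 points for neurod6a; a gap of 0 and gaps of up to those bounds cannot be told apart. Because both fragments were chosen by being listed against the shared 50 µg/L group, the return towards control is part of the choice.

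dlgap4a encodes a postsynaptic scaffold protein that binds the PSD-95 family. Its fragment (chromosome 23, 43269348 to 43269468, 121 bp, 5 CpG sites, 14.98 kb beyond the higher-coordinate end) had 49.8% methylation in control, 65.3% at 50 µg/L and 65.9% at 100 µg/L per the authors' deposited tables. Both exposed groups stood above control by a similar amount. The differences from control were 15.5 points at 50 µg/L (SE 3.69, interval 6.01 to 24.95, 4 and 3 libraries, F-test p = 0.00849 in the authors' deposited table) and 16.1 points at 100 µg/L (SE 4.05, interval 6.18 to 26.0, 4 libraries each, F-test p = 0.00735 in the authors' deposited table). These comparisons share the control libraries, so they are not separate evidence. The gap of 0.620 points between both doses had a 95% interval of −14.9 to 16.2 points with the largest SE that both F statistics allow, which leaves room for a dose difference of the size listed elsewhere.

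**Figure D2:**
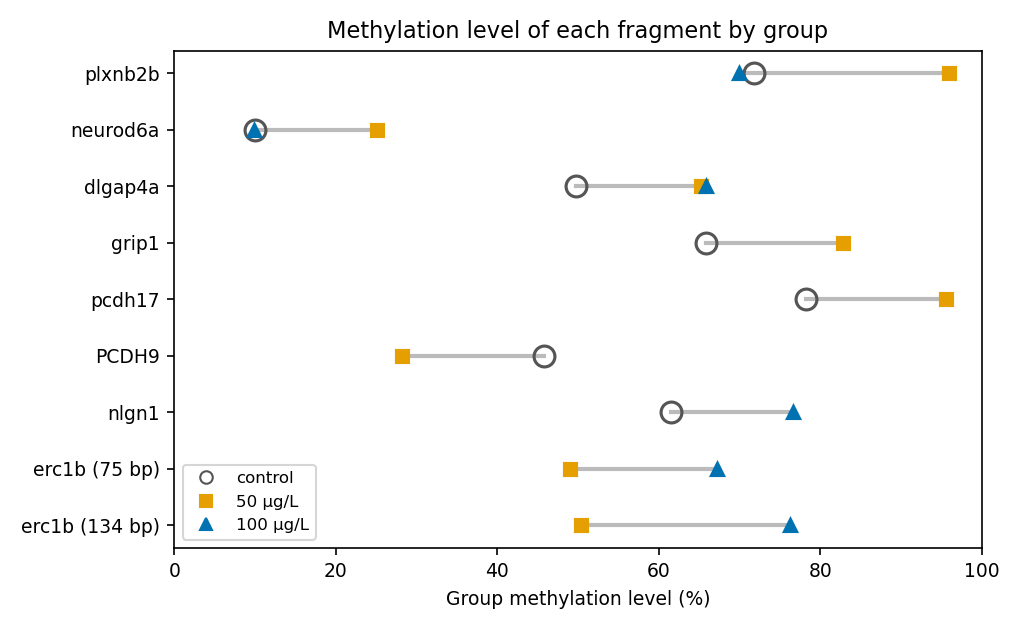
Group methylation level in percent of each of the 9 fragments in control (open circles), 50 µg/L (squares) and 100 µg/L (triangles), joined by a grey line. No error bars are drawn because the authors' deposited tables hold no levels per library. For plxnb2b and neurod6a the 50 µg/L level (95.9% and 25.1%) stands above both others, for dlgap4a both doses (65.3% and 65.9%) stand above control, and the other 6 fragments have levels in 2 groups.

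The other 6 fragments were listed in 1 table each, so their level in the third group is not known here. pcdh17 encodes a protocadherin, an adhesion protein that in mouse takes part in synapse and axon bundle formation. The fragment assigned to it (chromosome 11, 33563245 to 33563362, 118 bp, 4 CpG sites) had 78.2% methylation in control and 95.6% at 50 µg/L per the authors' deposited table. This was a rise of 17.4 points (SE 2.75, interval 9.76 to 25.04, 3 libraries each, F-test p = 0.00320 in the authors' deposited table). Like plxnb2b it was nearly fully methylated at 50 µg/L, and 3 of the 55 listed fragments reached 95% there. Its spread within groups, an SD of 3.37 points computed from F, was the third smallest of the 55, and its change on the log odds scale, 1.80, the fourth largest. The SD rests on 3 libraries per group, and the part of the near-full level at 50 µg/L in both ranks was not tested.

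PCDH9 encodes another protocadherin, a cell adhesion protein of the nervous system. Its fragment (chromosome 6, 4510438 to 4510516, 79 bp, 2 CpG sites) was the 1 member that lost methylation at 50 µg/L, from 45.7% to 28.2% in the authors' deposited table. The difference was −17.5 points (SE 3.14, interval −25.6 to −9.44, 4 and 3 libraries), with the third smallest F-test p of the 55 in the authors' deposited table, 0.00256. It also had the fewest CpG sites and the greatest distance from its gene among the 9.

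grip1 encodes a scaffold with PDZ domains that binds AMPA-type glutamate receptors. Its intronic fragment (chromosome 4, 12117053 to 12117205, 153 bp, 9 CpG sites) was the longest of the 9 and lay 16.7 kb from the lower-coordinate end of a 220 kb gene range. Methylation was 65.9% in control and 82.8% at 50 µg/L per the authors' deposited table. The rise of 16.9 points (SE 4.33, interval 5.81 to 28.1, 4 and 3 libraries) had the largest F-test p of the 6 members in that comparison, 0.0113 in the authors' deposited table.

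Over control against 50 µg/L, 5 of 6 member fragments were higher at 50 µg/L (plxnb2b, neurod6a, pcdh17, dlgap4a and grip1) and 1 was lower (PCDH9), where 41.8% of the 55 listed fragments were higher. The median difference was 16.2 points for the 6 and −15.4 points for all 55. Every listed size is at least 15 points, so the sign of such a median only tells which direction was more frequent. The 55 were 23 higher and 32 lower. The members were picked from the listed fragments, so this count was not tested. All 6 had a within-group SD under the table's median of 6.18 points, in a range of 3.37 to 5.67. The sizes ran from 15.2 points, close to the smallest listed of 15.04, to 24.1 points, with the largest listed at 40.6.

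nlgn1 encodes a neuroligin, a postsynaptic adhesion protein that binds neurexins across the cleft. The fragment assigned to it (chromosome 11, 9824888 to 9825030, 143 bp, 4 CpG sites, 138 kb from the gene range) had 61.5% methylation in control and 76.6% at 100 µg/L per the authors' deposited table. The rise of 15.1 points (SE 3.54, interval 5.98 to 24.2, 3 and 4 libraries, F-test p = 0.00801 in the authors' deposited table) was the smallest of the 17 listed for that pair. It was the member nearest to the 15-point limit that every listed difference passes. Fragments under the limit were not analysed here.

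Of the members 2 were listed for control against 100 µg/L, and both (nlgn1 and dlgap4a) were higher at 100 µg/L, where 47.1% of the 17 listed fragments were higher. Their median difference was 15.6 points, against −15.6 points for all 17. The 17 were 8 higher and 9 lower, a nearly even split, so the sign of their median hangs on few entries.

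erc1b encodes a scaffold of the presynaptic active zone, where vesicles fuse. It was the 1 member gene with 2 fragments, both intronic and both more methylated at 100 than at 50 µg/L. The shorter (chromosome 4, 7729367 to 7729441, 75 bp, 7 CpG sites) had 49.0% and 67.2% in the authors' deposited table, a rise of 18.2 points (SE 3.52, interval 9.15 to 27.2, 3 and 4 libraries, F-test p = 0.00354). The longer (7791951 to 7792084, 134 bp, 7 CpG sites) had 50.4% and 76.3% in the authors' deposited table, 25.9 points apart (SE 9.25, interval 2.15 to 49.7, 3 and 4 libraries, F-test p = 0.0378). The larger difference was the less certain one. Its within-group SD of 12.1 points was the highest of all 99 fragments in that comparison, against 4.603 points for the shorter fragment and a median of 6.40. Both fragments lie in the same gene, 35.8% and 59.9% along its range. They were read in libraries of the same 2 groups and are not replicates of each other. Which 3 of the low-dose libraries each one used is not known.

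**Figure D3:**
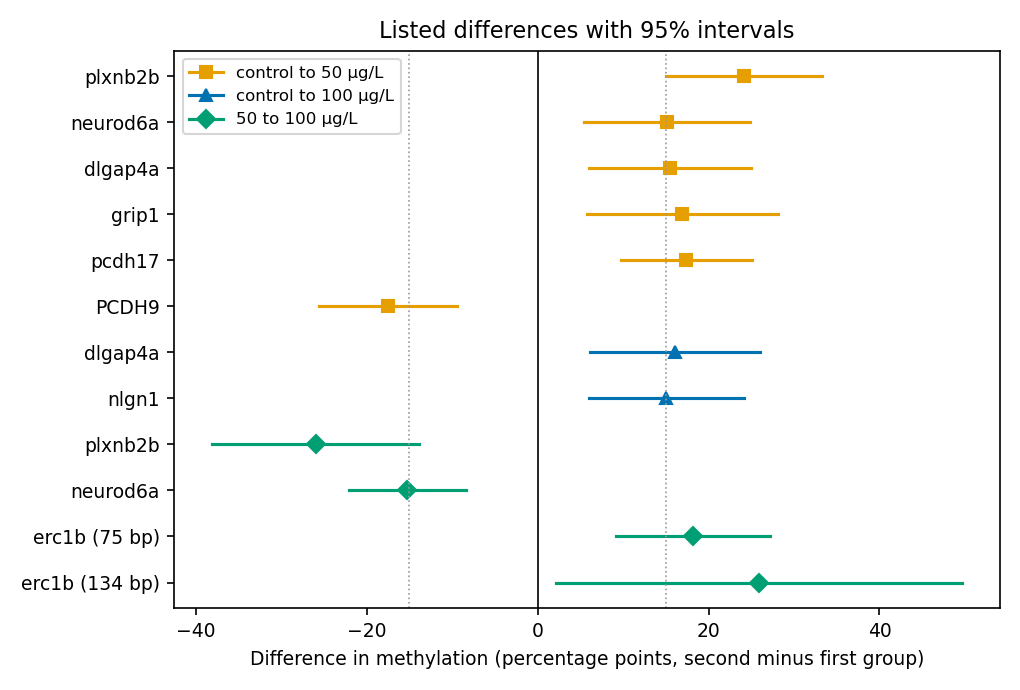
Difference in methylation in percentage points (second minus first group) of the 12 entries, with 95% intervals from the authors' F statistics and degrees of freedom; dotted lines mark 15 points, the lower limit of the listed sizes. The interval of the longer erc1b fragment is the widest, 2.15 to 49.7 points, and those of PCDH9 and of plxnb2b and neurod6a between doses lie below 0.

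The table for 50 against 100 µg/L sets a threshold beside each p that grows in proportion to its rank. The deposited p was at or under it for 3 of the 4 member entries, namely neurod6a, plxnb2b and the shorter erc1b fragment, and for 33.3% of the 99 listed fragments. The threshold in the authors' deposited table was 0.00353 for neurod6a, 0.00489 for plxnb2b and 0.00625 for the shorter erc1b fragment. For the longer erc1b fragment it was 0.0239, below its p of 0.0378 at rank 88. By direction, 2 of 4 member entries were higher at 100 µg/L (both erc1b) and 2 lower, where 64.6% of the 99 were higher. The median difference of the 4 was 1.47 points, the midpoint between rises and falls of at least 15 points, and that of all 99 was 15.6 points. The level of false discoveries behind the threshold is not given in the sources used here: it fits 0.05 over 184 tests or 0.1 over 368. Its ranks run over the 99 listed fragments only, each with a difference of at least 15 points. What it controls over all tested fragments is therefore not known.

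**Figure D4:**
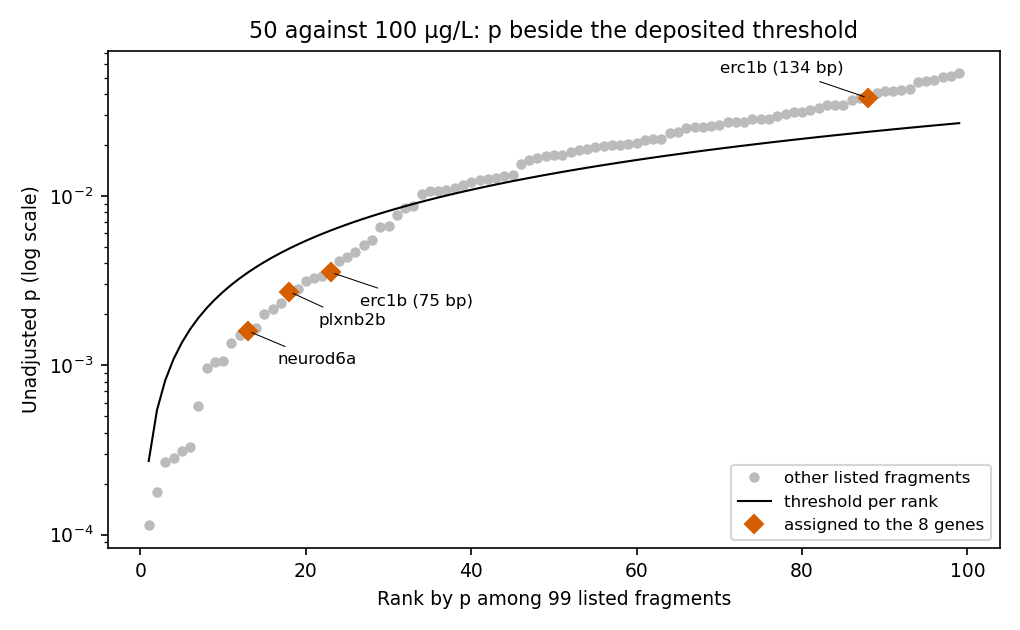
Unadjusted p (log scale) of the 99 fragments listed for 50 against 100 µg/L by rank, with the authors' threshold per rank as a line and the 4 member entries as diamonds. Fragments of neurod6a, plxnb2b and the 75 bp erc1b fragment lie under the line at ranks 13, 18 and 23, and the 134 bp erc1b fragment lies above it at rank 88.

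A wider list of synapse and axon guidance symbols, chosen with earlier results of these data known, found 3 further listed genes. cadm4, an adhesion gene of the nectin-like family, had an intronic fragment (chromosome 16) with 46.8% methylation in control and 62.01% at 50 µg/L per the authors' deposited table (SE 4.16 points). ptprfb, a receptor phosphatase gene whose mammalian counterpart LAR organises presynaptic sites, had 66.3% and 51.2% at a fragment 16.3 kb away in the authors' deposited table (SE 4.06 points). neurog1, a proneural transcription factor gene, had 33.3% at 50 and 48.99% at 100 µg/L at a fragment 595 kb away in the authors' deposited table (SE 4.997 points), with p above the threshold per rank. With the members, 6 of 8 entries on the list were higher at 50 µg/L than in control, beside 41.8% of all listed. For 100 µg/L against control 2 of 2 were higher, beside 47.1%. The members counted above gave 5 of those 6 rises and both rises at 100 µg/L. Of the added genes 1 was higher (cadm4) and 1 lower (ptprfb) at 50 µg/L, and 0 were listed for control against 100 µg/L. Between doses 3 of 5 were higher at 100 µg/L, a share close to the 64.6% of all 99. The median differences of the list were 15.4, 15.6 and 15.7 points in this order, beside −15.4, −15.6 and 15.6 points for all listed fragments. The signs of these medians only repeat which direction was more frequent. The 15.7 points are the value of neurog1, which lies between both erc1b rises and both falls.

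Further neuronal genes outside that list were named after their values were seen. A fragment 481 kb from the synaptic vesicle gene SV2B (2 of 3) had 77.7% in control and 62.4% at 50 µg/L per the authors' deposited table. One 146 kb from LINGO2, a neuronal membrane protein gene, had 92.2% and 76.6% per the authors' deposited table. Both of these were lower at 50 µg/L, unlike most entries on the list. The 6 of 8 counted above leaves them out, so that count depends on which symbols the list holds. The 2 of 2 at 100 µg/L depends on the list too: cacna2d2 (−16.4 points) and TRIM67 (−17.2 points) lie outside it and were lower there. Of all 17 listed for that pair, 8 were higher and 9 lower. The adhesion gene negr1 held an intronic fragment with 62.7% at 50 and 78.1% at 100 µg/L per the authors' deposited table.

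The authors' F-test p was at most 0.0530 in every listed entry, so a large SD beside a size near 15 points could not be listed. The SDs come from the same F and only describe the members. Within-group SDs were 4.63 and 5.73 points in the 2 entries for control against 100 µg/L (median of the 17 listed, 5.52) and 3.96 to 12.1 points in the 4 entries for 50 against 100 µg/L. The 50 µg/L group contributed 3 of its 4 libraries in 8 of the 10 member entries that include it, as in 46 of 55 and 87 of 99 entries of the whole tables. Which library was left out, and the part of this in the results, was not tested.

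**Figure D5:**
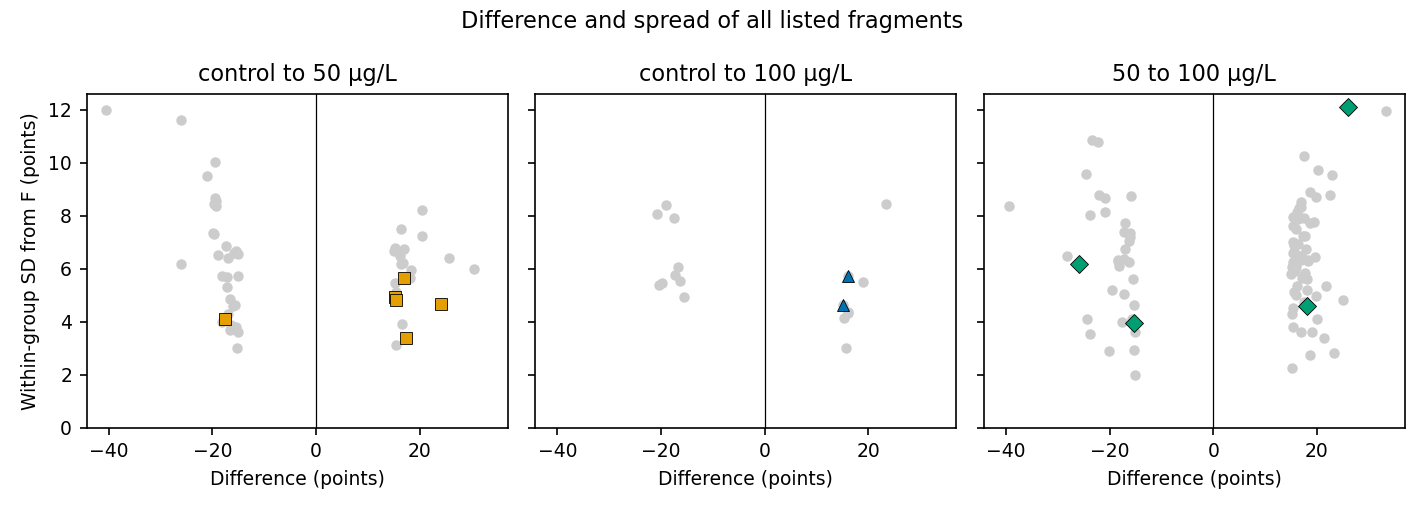
Within-group SD computed from F against the difference, both in percentage points, for all listed fragments of each comparison (grey) and the member entries (coloured). Member entries for control to 50 µg/L lie between 3.37 and 5.67 points of SD, and the longer erc1b fragment, at 12.1 points, lies above all others for 50 to 100 µg/L.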

How the data were processed

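DNA cut with MspI was sized to 40 to 220 bp, bisulfite converted and read once over 100 bases, per the labels' protocols. Per the submitters' processing notes, the build was Zv9; the aligner, caller, coverage minimum and count of tested fragments are not stated there or in the labels. Each deposited table gives group methylation levels as a fraction, printed here as percent, an F statistic and an unadjusted p value from the authors' F test. The deposited size of the difference matched the gap of both levels within 0.01 points in 171 of 171 entries. Columns were taken by position, since 1 header is shifted. The SE is the difference over the square root of F, the within-group SD follows from it and the library numbers, and 95% intervals use t with the deposited degrees of freedom. They assume that F was computed on the printed levels. The formulas were checked on simulated normal levels with equal spread in all groups and no selection by size or p. That check could not test the assumption about F, nor the coverage for fragments listed because of their size and p. For fragments in 2 tables, both error sums of squares bound the SE of the third pair. Python 3.11.15 with pandas 2.3.3, SciPy 1.17.1 and matplotlib 3.10.9 was used. Members, lists and alternatives were chosen with earlier results of these data known; every entry of the 8 genes and of the wider list is named. Of the 8 symbols 7 were found in Ensembl's current zebrafish symbols, all but neurod6a, and 8 in RefSeq's. Tests on values per library were not run, and no sequence is printed because no genome of this build was used here.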

Additional observations from a re-analysis of the deposited data

Results flagged for a closer look

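At plxnb2b and neurod6a the response to 50 µg/L differed from that to 100 µg/L by the authors' F test between both doses, in which control cancels. The difference (100 minus 50 µg/L) was −26.0 points for plxnb2b and −15.3 points for neurod6a in the authors' deposited table. That difference also chose the fragments, so it is given as a description.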

How the results depend on the processing

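All 12 differences kept their sign on the log odds scale and equalled the deposited size. The log odds scale keeps the order of levels, so the sign could not change there. The deposited size is the same gap, so neither check bears on how firm the differences are. With fragments inside the gene only, or inside it or within 10 kb, higher members fell from 5 to 2 for control against 50 µg/L and from 2 to 0 for control against 100 µg/L, and lower ones from 1 to 0 and, for 50 against 100 µg/L, from 2 to 1. With 3 or more CpG sites, PCDH9 dropped out, leaving 0 lower at 50 µg/L. With 4 libraries in both groups, 0 entries were left for control against 50 µg/L, 1 higher for control against 100 µg/L (dlgap4a) and, for 50 against 100 µg/L, 0 higher and 1 lower (neurod6a). These counts shrink because fewer fragments qualify. Every interval excluded 0 with t or normal quantiles, and 0 of the 6, 2 and 4 did with a Bonferroni width over all fragments listed for the comparison. The intervals come from the same F statistics as the deposited p values. Excluding 0 with t quantiles, and with the narrower normal ones, was thus fixed by those p values and is no separate check. At 0.5 times the deposited threshold 1 of 4 entries (neurod6a) passed in place of 3, beside 16 of 99 listed in place of 33, and stepping up to the largest passing rank left 3. With the smallest SE allowed, the gaps between groups not compared still included 0. No paired analysis was possible because the tables hold no values per library, and for the same reason no library could be left out. Read depth is unknown, so counting error could not be given.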
